A study of Mus musculus with 38 samples.

Results

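The lecticans and other genes of the perineuronal net were followed in dVenus+ and dVenus- cells of the mouse dentate gyrus, 9 genes in all: Acan, Bcan, Ncan, Vcan, Hapln1, Hapln4, Tnr, Tnc and Ptprz1. They were taken by symbol from a fixed list, all 9 being among the 23420 genes counted in each library. The lecticans aggrecan (Acan), brevican (Bcan), neurocan (Ncan) and versican (Vcan) are chondroitin sulfate proteoglycans that bind hyaluronan at one end and tenascin-R at the other. Link proteins (Hapln1, Hapln4) hold lecticans on hyaluronan, tenascin-R (Tnr) ties the strands together, and tenascin-C (Tnc) is its relative of the developing and injured brain. In perineuronal nets this mesh encloses the soma and proximal dendrites of certain neurons, foremost parvalbumin interneurons, and aggrecan is their usual marker. Ptprz1 encodes a receptor tyrosine phosphatase whose secreted splice form, phosphacan, is itself a proteoglycan of the net.

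All mice were males of the Arc::dVenus line on a C57BL/6J background, 8 to 12 weeks old, which carry a short-lived fluorescent protein, dVenus, under the promoter of the immediate early gene Arc. Fear conditioned mice (FC, n = 12) received tones that ended with a foot shock, no-shock mice (NS, n = 4) were exposed to the same chamber and tones without a shock, and home-cage mice (HC, n = 3) had no training. FC and NS cells were collected 24 h after training. From each of the 19 mice, 10 dVenus+ and 10 neighboring dVenus- granule cells were aspirated and pooled into 1 library each, so a value is that of a pool of 10 cells, and fewer cells of a type and less RNA per cell cannot be told apart. The dVenus label marks cells by activity of the Arc promoter and not by cell type. FC libraries came in 3 submissions, of 2, 4 and 6 mice, and NS and HC libraries in another, so that training and submission cannot be told apart between FC and the other groups, whereas both libraries of a mouse share a submission.

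Between 1352288 and 18394761 reads per library were counted on genes (median 8013005), and the dVenus+ library held fewer reads than its partner in 9 of 12 FC, 3 of 4 NS and 2 of 3 HC mice. Levels are given as normalized CPM, counts scaled to library size by TMM over all 38 libraries. A count of 3, taken as the floor of detection, corresponds to between 0.132 and 1.69 normalized CPM, and covers counting error only. Granule cell markers were present in every library, with Prox1, the transcription factor of dentate granule cells, above 0 in all 38. Their summed level was lower in dVenus+ cells in 11 of 12 FC, 4 of 4 NS and 2 of 3 HC mice. As a description, Spearman's rho with this sum over 38 libraries was -0.587 for Acan and -0.595 for Ptprz1. Within the 19 dVenus+ libraries it was -0.218 and 0.089. One library stood apart: in the dVenus- library of FC mouse 10 the 8 interneuron markers summed to 2722 normalized CPM, the highest of 38 libraries, with 32261 counts of Gad1 and 4754 counts of Pvalb. Where this mouse moved a value of Acan, Vcan, Hapln1 or Hapln4 in FC by over 1.5 times or turned its sign, the value without it is given as well.

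Arc itself, which checks the reporter, lay between 477 and 1539 normalized CPM in the FC dVenus+ libraries, with a median of 830. In their dVenus- partners it lay between 0 and 172, with a median of 0.566. The groups did not overlap. It rose in dVenus+ cells by 9.98 on the log2 scale (SE 1.41, edgeR adjusted p = 0.000991), and was higher in 12 of 12 FC, 4 of 4 NS and 3 of 3 HC mice.

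Acan was the lectican that rose in dVenus+ cells of FC mice. In the 12 FC dVenus+ libraries it lay between 0 and 273 normalized CPM with a median of 41.4, and 10 of them held at least 10 counts. In the 12 FC dVenus- libraries it lay between 0 and 21.8 with a median of 0, and 7 held no count. Most dVenus+ libraries were thus well above the floor, and most dVenus- libraries at or under it. The mean was 73.6 ± 86.2 (SD, n = 12) in dVenus+ and 2.52 ± 6.46 (SD, n = 12) in dVenus- libraries, and Acan was higher in dVenus+ cells in 11 of 12 mice and at 0 in both libraries of mouse 05. The fitted log2 fold change was 8.06 (SE 1.33, edgeR quasi-likelihood test with the mouse as block, adjusted p = 0.00465). Acan passed the count filter exactly, with 10 dVenus+ and 2 dVenus- libraries of at least 10 counts, so it entered the test through the group in which it is high.

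Only the dVenus- libraries of mouse 01, with 97 counts, and mouse 10, with 409 counts, reached 10 counts of Acan. The library of mouse 10 is the one with the highest interneuron markers, and without this mouse the dVenus- mean was 0.765 normalized CPM and the log2 fold change of Acan 8.64 (edgeR adjusted p = 0.00256). Leaving out each mouse in turn gave values from 7.66 to 8.64, with adjusted p between 0.00256 and 0.0164. The dVenus+ libraries of 12 FC mice held 17.1 to 406 normalized CPM of interneuron markers against 31.0 to 2722 in dVenus- libraries, and this sum was lower in dVenus+ cells in 9 of 12 mice. Of the 8 markers, Gad1, Gad2, Pvalb, Lhx6 and Erbb4 had their highest count in a dVenus- library, and so had Slc32a1, which was nevertheless at 0 in 8 of 12 dVenus+ and 11 of 12 dVenus- libraries. Sst and Vip had theirs in a dVenus+ library, at 274 and 373 counts against at most 2 and 0 in dVenus- libraries. At least 10 counts were found in 10 of 12 dVenus+ libraries for Gad1, 12 for Gad2 and 8 for Pvalb, and in 12, 12 and 9 of 12 dVenus- libraries. The part of interneurons in the levels of Acan was not tested. A sign-flip test over the 12 mice, which uses no count model, gave a mean difference of 4.06 in log2(normalized CPM + 1) with an exact permutation p = 0.000977 and an adjusted p of 0.0366. In this test 3.21% of all genes had an adjusted p under 0.05. Within the 3 submissions, the log2 fold change was 6.90, 9.85 and 6.93, and none of these passed the threshold alone (edgeR adjusted p = 0.0623, 0.618 and 0.366). Without the mouse as block it was 4.87, and the adjusted p of edgeR was 0.0622, so Acan was not called in that fit. The ratio of the mean levels was 29.2, and it was larger without mouse 10, with means of 74.9 and 0.765 normalized CPM. With 7 of 12 dVenus- libraries at 0, the size of the fitted fold change is less sure than its direction. Why the fits differ was not tested.

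The same direction was seen without a shock, from fewer counts. In NS dVenus+ libraries Acan had 16.6, 92.9, 0 and 6.54 normalized CPM in mice 18 to 21, and in HC dVenus+ libraries 26.9, 0 and 22.0 in mice 15 to 17. All 7 NS and HC dVenus- libraries held 0 counts. Against a floor of 3 counts per library, the mean was at least 78.6-fold higher in dVenus+ cells in NS and at least 43.7-fold higher in HC mice. The bound was 24.7-fold without NS mouse 19, 24.6-fold without HC mouse 15 and 95.1-fold without HC mouse 16. Neither passed the test, in which Acan was under the count filter and was fitted without it (edgeR adjusted p = 0.964 in NS and 0.907 in HC). Without the filter, 0.0896% of genes were called in NS and 0.0359% in HC. Over all 19 mice Acan was higher in dVenus+ cells in 16 and equal, at 0, in 3, and at least 10 counts were found in 15 of 19 dVenus+ and 2 of 19 dVenus- libraries. The dVenus+ library of NS mouse 19 held 428 normalized CPM of interneuron markers, the 4th highest sum of 38. This sum was higher in dVenus+ cells in 1 of 4 NS and 2 of 3 HC mice. Spearman's rho between Acan and the sum was -0.096 over 38 libraries and 0.062 within the 19 dVenus+ libraries, as a description. The part of interneurons was not tested here either.

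Ptprz1 rose in dVenus+ cells of every FC mouse. Its level was 233 to 826 normalized CPM in FC dVenus+ libraries (median 517) and 0.662 to 298 in FC dVenus- libraries (median 40.6). The ranges overlapped through 1 dVenus- library, that of mouse 12, which lay above the lowest 3 dVenus+ libraries. The means were 512.6 ± 224 and 82.2 ± 88.8 (SD, n = 12 each), and the log2 fold change was 3.37 (SE 0.69, edgeR adjusted p = 0.0161). The within-mouse difference in log2(normalized CPM + 1) ran from 0.80 in mouse 01 to 8.71 in mouse 04, with a median of 3.07. The sign-flip test gave an exact permutation p = 0.000488, the smallest it can give over 12 mice, and an adjusted p of 0.0300. Leaving out each mouse in turn kept the call, with log2 fold changes from 3.01 to 3.64 and edgeR adjusted p from 0.0101 to 0.0407. With library totals alone as the scaling it was 2.97 and no longer passed the threshold (edgeR adjusted p = 0.0627). Nor did it without mice 03 and 05, at 3.20 (edgeR adjusted p = 0.0870), or within the 3 submissions alone, at 1.60, 5.54 and 2.79 (edgeR adjusted p = 0.631, 0.402 and 0.333).

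Ptprz1 is a gene of astrocytes and oligodendrocyte precursors as well as of neurons, so markers of both are given beside it. In FC libraries the 9 astrocyte markers summed to 52.9 to 1570 normalized CPM in dVenus+ and to 163 to 2972 in dVenus- cells, and were lower in dVenus+ cells in 9 of 12 mice. Single markers differed: Gja1, the astrocyte connexin, had at most 6 counts in any FC dVenus+ library and up to 2556 in dVenus- libraries, while Aqp4, the astrocyte water channel, was at 0 in no dVenus+ and 5 dVenus- libraries, with up to 429 and 225 counts. The glutamate transporter Slc1a2 had at least 10 counts in all 24 FC libraries. The 7 precursor markers summed to 0 to 96.0 normalized CPM in dVenus+ and 0 to 83.2 in dVenus- cells, and were higher in dVenus+ cells in 8 of 12 mice. Pdgfra, which defines these precursors, was at 0 in 8 of 12 FC dVenus+ and 9 of 12 dVenus- libraries. Olig2 was above 0 in 5 dVenus+ libraries and in none of 12 dVenus- libraries, and Olig1 had at least 10 counts in 5 and 3. The dVenus- library of mouse 12, highest in Ptprz1 among dVenus- libraries, also held the highest precursor sum among them, which came almost wholly from Cspg4, at 82.9 of 83.2 normalized CPM, the only marker of the list with at least 10 counts there. Microglial markers were higher in dVenus+ cells in 12 of 12 FC mice, at 32.7 to 1714 against 1.12 to 499 normalized CPM. The part of these cell types in the levels of Ptprz1 was not tested.

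In NS mice Ptprz1 had 289, 249, 288 and 146 normalized CPM in dVenus+ cells of mice 18 to 21 and 72.8, 59.4, 219 and 42.9 in their dVenus- cells. In HC mice it had 222, 27.4 and 523 in dVenus+ and 11.9, 0.201 and 96.4 in dVenus- cells of mice 15 to 17. The dVenus+ library was the higher in each of these 7 mice as well. Beside it, precursor markers were higher in dVenus+ cells in 3 of 4 NS and 3 of 3 HC mice, astrocyte markers in 2 of 4 and 3 of 3, and microglial markers in 4 of 4 and 2 of 3, and their part was not tested. The log2 fold change was 1.56 (SE 0.89) in NS and 4.19 (SE 1.66) in HC mice, with edgeR adjusted p of 1.00 and 0.984. Over all 19 mice Ptprz1 was higher in dVenus+ cells in 19.

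**Figure D1:**
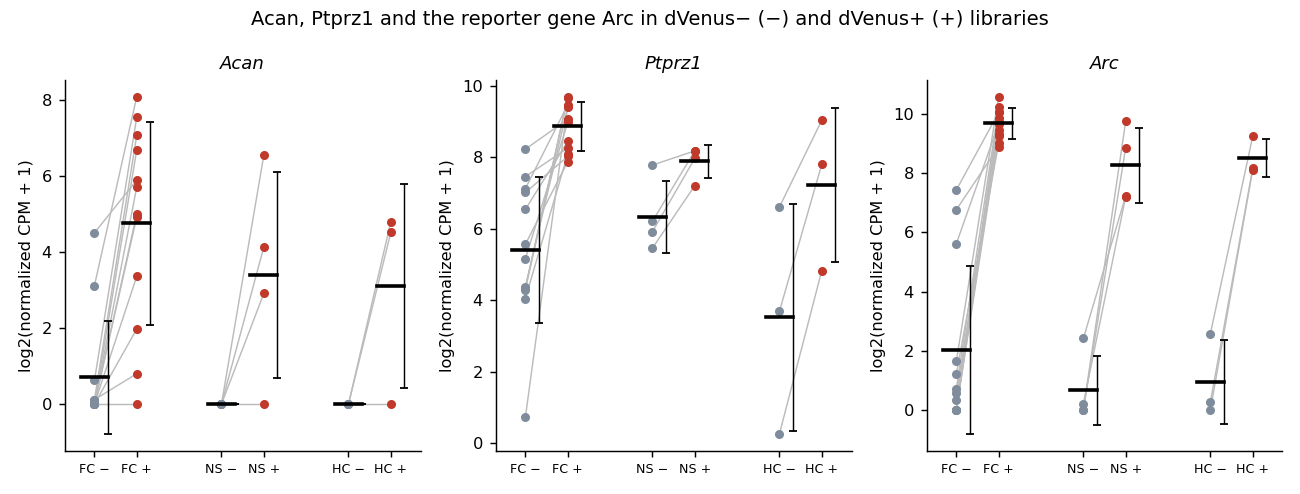
Levels of Acan, Ptprz1 and Arc on the scale log2(normalized CPM + 1) in every library, grouped by training (FC, NS, HC) and cell type (- for dVenus-, + for dVenus+). Each point is 1 library of 10 cells, grey lines join the libraries of 1 mouse, black lines are means with the SD beside them (n = 12, 4 and 3 mice). Lines of Ptprz1 and Arc rise in all 19 mice, and those of Acan rise in 16 and stay at 0 in 3.

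Of the 9 genes, 4 passed the count filter of FC (Acan, Ncan, Tnr and Ptprz1), and 2 of them, Acan and Ptprz1, were called in FC, both higher in dVenus+ cells. Over all 9709 genes tested in FC, 1.41% were called in either direction, 0.577% as higher and 0.834% as lower. Since Acan entered through the group in which it is high, the count of 2 is not read against these shares. In the fit without the filter both were called too, Acan at 8.04 (edgeR adjusted p = 0.00263) and Ptprz1 at 3.32 (edgeR adjusted p = 0.00984). The remaining 5 genes were under the filter, so their values come from a fit of 18089 genes without it, in which 0.735% were called. None of the 5 was called there by edgeR, while Bcan and Tnc had an unadjusted p under 0.05, as did 9.9% of all genes in that fit. Ptprz1 moved the same way in every FC mouse, as did 1.63% of the genes tested.

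Ncan, a lectican made by neurons and astrocytes, had at least 10 counts in all 38 libraries. In FC mice it lay between 15.6 and 386 normalized CPM in dVenus+ cells, with a median of 214, and between 54.7 and 222 in dVenus- cells, with a median of 96.0. Means were 204 ± 88.5 and 116 ± 56.6 (SD, n = 12 each), with a wide overlap. It was higher in dVenus+ cells in 9 of 12 mice, with a log2 fold change of 0.78 (SE 0.39) that did not pass (edgeR adjusted p = 0.414). NS dVenus+ libraries held 307, 84.8, 172 and 203 normalized CPM against 10.1, 16.2, 155 and 239 in dVenus- libraries. HC dVenus+ libraries held 225, 14.9 and 187 against 165, 7.05 and 10.2. The dVenus+ value was the higher in 6 of these 7 mice, with a log2 fold change of 1.44 (SE 0.92, edgeR adjusted p = 0.653) in the fit of NS and HC together.

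Bcan, a lectican made largely by glia, leaned in opposite directions with and without a shock. In FC dVenus+ libraries it was at 0 to 4.27 normalized CPM (median 0.281) and in FC dVenus- libraries at 0 to 102 (median 11.6). The highest dVenus+ library lay well below the upper dVenus- libraries, of which 7 of 12 reached 10 counts against 3 of 12. It was lower in dVenus+ cells in 8 of 12 mice, with a log2 fold change of -4.30 (SE 1.98) that did not pass (edgeR without the count filter, adjusted p = 0.454). Without the mouse as block the same fit gave -4.87 with an adjusted p of 0.0334 in edgeR, past the threshold. The share of all genes called in that fit is not given here. With the filter, 126 of 9709 genes were called in FC without the block and 137 with it. In NS mice Bcan was at 31.0, 24.4, 0 and 3.04 normalized CPM in dVenus+ cells and at 0.914, 5.42, 4.04 and 0.720 in dVenus- cells. In HC mice it was at 68.0, 0 and 53.6 in dVenus+ and at 0.667, 1.81 and 0.0973 in dVenus- cells. The dVenus+ value was thus the higher in 5 of 7 mice, with a log2 fold change of 2.68 (SE 2.57, edgeR adjusted p = 0.768). The sum of astrocyte markers was lower in dVenus+ cells in 9 of 12 FC mice. It was higher in 3 of 3 HC mice, at 1724 to 1782 against 620 to 902 normalized CPM, and in 2 of 4 NS mice. Library by library Bcan followed this sum little, with a Spearman's rho of 0.15 over 38 libraries. With precursor markers rho was 0.29 and with interneuron markers 0.45, as descriptions over libraries that come in pairs from a mouse. The part of these cell types in the levels of Bcan was not tested.

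The difference between the trainings was tested by itself. For Bcan the log2 fold change of FC minus the mean of NS and HC was -8.12 (SE 3.68), with an unadjusted p of 0.0367 and an adjusted p of 0.651 in edgeR. At an unadjusted p under 0.05, 7.45% of all 14075 genes in this fit were found, and at an adjusted p under 0.05, 0% were. For Acan the same difference was -1.90 (SE 1.37, edgeR adjusted p = 0.790) and for Ptprz1 0.41 (SE 1.04, edgeR adjusted p of 1.00). None of the 9 genes passed the adjusted threshold in FC minus NS, FC minus HC, NS minus HC or FC minus their mean with edgeR. Some of these tests could not decide, because a cell type was at 0 in every library of a group. All 7 NS and HC dVenus- libraries held no Acan, so its difference of NS minus HC had an SE of 645247. Its differences of FC against NS, HC or their mean rest on the same zeros. Tnc was at 0 in all FC and HC dVenus+ libraries, with an SE of 16143 in FC minus HC. In FC minus NS the smallest unadjusted p of edgeR was that of Tnc, at 0.0470. There the FC dVenus+ and the NS dVenus- libraries all held 0 counts of Tnc. Over all genes, 0%, 0% and 0.0071% passed in FC minus NS, FC minus HC and NS minus HC, and 5.42%, 6.34% and 4.89% had an unadjusted p under 0.05. With the Wald test of DESeq2, Bcan passed in FC minus the mean of NS and HC, at -7.14 with an adjusted p of 0.00364. That test passed 1613 of the 14075 genes in this difference, where edgeR passed 0%. A rise in FC that passes the test is therefore not shown to differ from NS or HC for Acan or Ptprz1.

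Vcan, the large lectican of oligodendrocyte precursors and the developing brain, was found in few pools. At least 10 counts were seen in 2 of 12 FC dVenus+ and 3 of 12 FC dVenus- libraries, with highest values of 22.6 and 70.4 normalized CPM, and medians of 0 in both. The 2 dVenus+ libraries, of mice 04 and 10, held precursor sums of 96.0 and 93.0 normalized CPM, the former from Olig1 alone and the latter with all 7 markers at 10 counts or more. The 3 dVenus- libraries, of mice 03, 06 and 13, held precursor sums of 1.73, 0.338 and 0.170, although that of mouse 03 was the highest of FC in Vcan, so Vcan did not follow these markers throughout. The log2 fold change in FC was -0.42 (SE 2.01, edgeR without the count filter, adjusted p = 0.973), and -1.43 without mouse 10. In HC mouse 15 the dVenus+ library held 338 counts of Vcan, at 92.7 normalized CPM, while the other 5 HC libraries held none. In NS mice, mouse 21 had 116 counts and mouse 19 had 8 counts in dVenus+ cells, and mouse 19 had 8 counts in dVenus- cells.

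Hapln1 had 1 count over all 12 FC dVenus+ libraries and 210 counts over the dVenus- libraries, all of them in mouse 10, the library with the highest interneuron markers. Its fitted log2 fold change in FC, -0.28 (SE 1.05), became 0.69 without that mouse. In NS mice Hapln1 was at 11.3, 24.1, 0 and 0 normalized CPM in dVenus+ cells and at 0, 0, 42.7 and 0.400 in dVenus- cells of mice 18 to 21. It was high in dVenus+ cells of mice 18 and 19 and in dVenus- cells of mouse 20, and in no mouse in both. In HC mice it had 13, 0 and 1 counts in dVenus+ and none in dVenus- cells.

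Hapln4, the link protein found around inhibitory terminals and nets, was at 0 to 14.1 normalized CPM in FC dVenus+ libraries (median 0.383) and at 0 to 217 in FC dVenus- libraries (median 0.610). It was lower in dVenus+ cells in 6 of 12 mice, higher in 3 and equal in 3, with a log2 fold change of -1.58 (SE 1.65, edgeR without the count filter, adjusted p = 0.852). Without mouse 10 the log2 fold change was -0.996, and the means of dVenus+ and dVenus- libraries were 0.586 and 8.02 normalized CPM against 1.71 and 25.5 with it. In NS dVenus- cells it was at 298, 139, 0.0792 and 0.160 normalized CPM in mice 18 to 21, against 27.0, 22.3, 0.202 and 3.74 in dVenus+ cells. HC libraries held 37.6, 4.19 and 17.6 in dVenus+ and 7.64, 14.7 and 1.17 in dVenus- cells. The 3 libraries highest in Hapln4 of all 38, the dVenus- libraries of NS mouse 18, FC mouse 10 and NS mouse 19, were also the 3 highest in summed interneuron markers, at 1267, 2722 and 490 normalized CPM. Single markers differed between them. In the same order they held 6627, 32261 and 1166 counts of Gad1, 360, 4754 and 452 of Pvalb, and 3, 2650 and 2 of Lhx6. Gad1 had at least 10 counts in 36 of 38 libraries. Whether interneurons carry the levels of Hapln4 was not tested. Over the 38 libraries, Spearman's rho between Hapln4 and the interneuron sum was 0.49, a description over libraries that come in pairs from a mouse. Of these 3, the NS libraries held no count of Acan and that of FC mouse 10 held 409.

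Of the tenascins, Tnr, the matrix glycoprotein of oligodendrocytes and some interneurons, was at 0 to 247 normalized CPM in FC dVenus+ (median 30.9) and 0.875 to 130 in FC dVenus- libraries (median 26.6). The groups overlapped over most of their range, and Tnr was lower in dVenus+ cells in 8 of 12 mice. The log2 fold change was -1.21 (SE 1.03, edgeR adjusted p = 0.700). It was higher in dVenus+ cells in 2 of 4 NS and 2 of 3 HC mice. Without the mouse as block the direction in FC turned, to 0.27.

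Tnc was at 0 in all 12 FC dVenus+ libraries. In FC dVenus- libraries it had 556 counts in mouse 01, 206 in mouse 07, 6 in mouse 03, 1 in mouse 14 and none in the other 8. Against a floor of 3 counts per library its mean was at least 7.39-fold lower in dVenus+ cells, which did not pass (edgeR without the count filter, unadjusted p = 0.0260, adjusted p = 0.372). This bound rests on mouse 01, without which it was 1.49-fold. Without the mouse as block the fitted log2 fold change was -8.53, with an adjusted p of 0.0334 in edgeR. As for Bcan, the share of all genes called in that fit is not given here. The largest count of Tnc, 868, was that of the dVenus- library of HC mouse 16, and in NS mice 16 counts were found in dVenus+ cells of mouse 18 and none elsewhere. Part of Tnc overlaps the gene 8030451A03Rik on the other strand, and part of Tnr the gene Gm38039, and since the library kit does not mark strand, reads of the overlapping parts cannot be told apart.

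**Figure D2:**
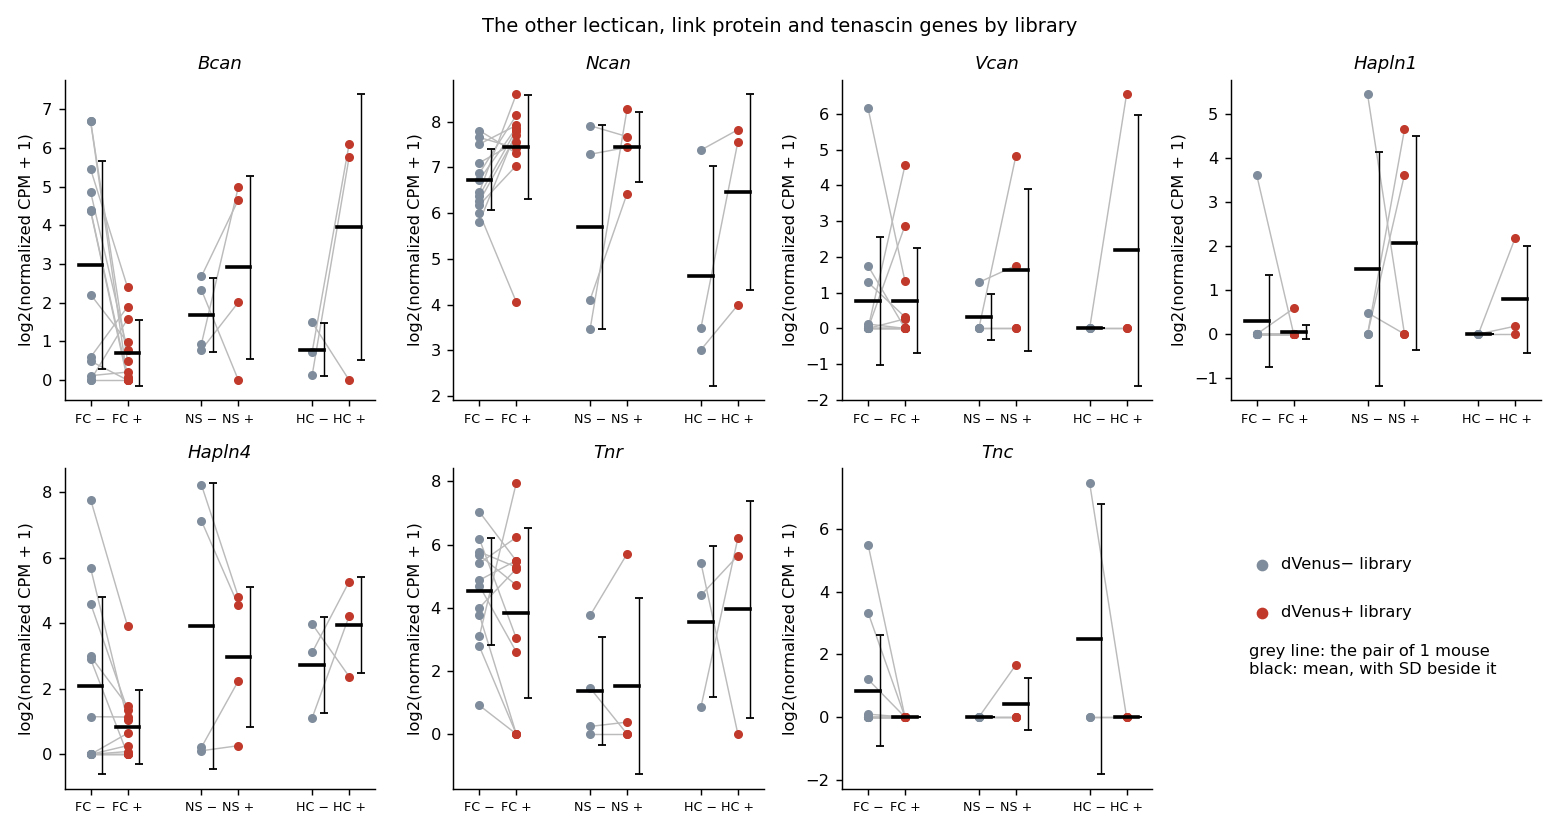
Levels of Bcan, Ncan, Vcan, Hapln1, Hapln4, Tnr and Tnc on the scale log2(normalized CPM + 1) in every library, drawn as grey points for dVenus- and red points for dVenus+ cells. Grey lines join the libraries of 1 mouse, and black lines are means with the SD beside them (n = 12 FC, 4 NS and 3 HC mice). Bcan falls in 8 of 12 FC mice and rises in 5 of 7 NS and HC mice, while Vcan, Hapln1 and Tnc are at 0 in most libraries.

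In NS, HC or the fit of all 7 NS and HC mice together, none of the 9 genes was called by edgeR. Arc itself was not called in NS (log2 fold change 10.6, edgeR adjusted p = 0.0782) or HC (9.73, edgeR adjusted p = 0.113). It was called in the fit of both (10.0, edgeR adjusted p = 0.0236). A missing call in NS or HC alone therefore does not show that a gene is unchanged. Among all genes tested, 0% of 8187 were called in NS, 0.0264% of 7588 in HC and 0.0266% of 7529 in the fit of both (0.0133% in each direction), or 0.064% in the latter without the filter. At an unadjusted p under 0.05 in edgeR, none of the 4 filtered members was found in NS and Ptprz1 was found in HC, against 4.69% and 3.91% of all genes. Among the 5 members under the filter Acan was found in NS and none in HC, against 3.49% and 2.75%. Ptprz1 moved the same way in every mouse of NS, and Ptprz1 and Ncan in every mouse of HC, as did 17.2% and 29.7% of all genes. In the fit of both, 1 of the 5 genes that passed the filter, Ptprz1, had an unadjusted p under 0.05, as did 9.39% of all genes. Its log2 fold change was 2.37 (SE 0.80, edgeR unadjusted p = 0.00948, adjusted p = 0.390), and the sign-flip test gave an exact permutation p = 0.0156, the smallest that 7 mice allow, with an adjusted p of 0.261. The Wald test of DESeq2 called Ptprz1 there (adjusted p = 0.00698), and it called 1065 of the 7529 genes, against 2 by edgeR. Genes that moved the same way in all 7 mice made up 5.99% of those tested. Acan, under the filter with 5 of 14 libraries at 10 counts or more, had an unadjusted p of 0.00355 and an adjusted p of 0.586 without it, where 5.21% of genes had an unadjusted p under 0.05. With 4 NS mice there is no sign-flip p under 0.125, and with 3 HC mice none under 0.25.

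**Figure D3:**
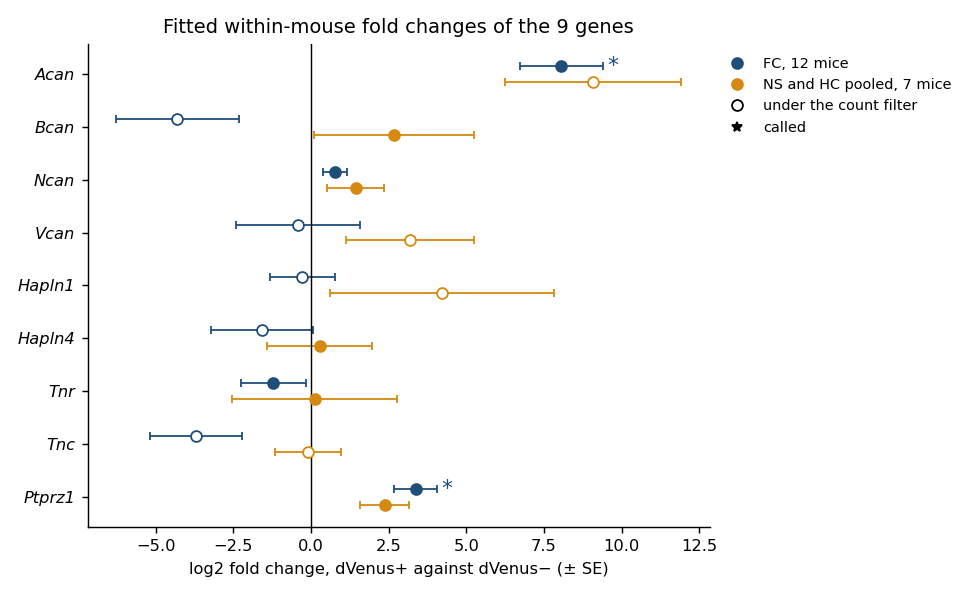
Fitted log2 fold change of dVenus+ against dVenus- cells for the 9 genes, in FC (blue, 12 mice) and in NS and HC together (orange, 7 mice), with bars of ± 1 SE. Filled points passed the count filter, open points come from the fit without it, and stars mark the 2 calls, Acan and Ptprz1 in FC. Where a cell type is at 0 in every library (Acan in NS and HC, Tnc in FC dVenus+), the fitted value depends on the prior count and is no bound.

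Per kilobase of exon, which allows levels to be compared between genes, the order in FC dVenus+ cells was Ptprz1, Ncan, Acan, Tnr and then Hapln4, Bcan, Vcan, Hapln1 and Tnc. The mean level was 36.0 ± 15.8 normalized CPM per kb for Ptprz1, 28.4 ± 12.3 for Ncan, 9.85 ± 11.5 for Acan and 3.37 ± 5.29 for Tnr (SD, n = 12), and the remaining 5 were at 0.435 or lower. Ptprz1 lay above Ncan in 7 of 12 mice, Ncan above Acan in 9, and Acan above Tnr in 7, so that the order at the top was not the same in every mouse and the ranges of neighbors overlapped. In FC dVenus- cells the order opened with Ncan at 16.1 ± 7.87, followed by Bcan at 6.56 ± 9.35, Hapln4 at 6.49 ± 15.9 and Ptprz1 at 5.77 ± 6.23. Acan was the last but one, at 0.337 ± 0.864. Without mouse 10 the means of Hapln4 and Acan were 2.04 and 0.102. Ncan lay above Bcan in 9 of 12 mice Bcan above Hapln4 in 6, and Hapln4 above Ptprz1 in only 3, since a few libraries carry its mean. In NS and HC dVenus+ cells the order also began with Ncan and Ptprz1, at 26.6 and 17.0 in NS and at 19.8 and 18.1 in HC mice. There Bcan was at 3.59 in NS and 9.97 in HC mice, against 0.231 in FC dVenus+ cells.

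**Figure D4:**
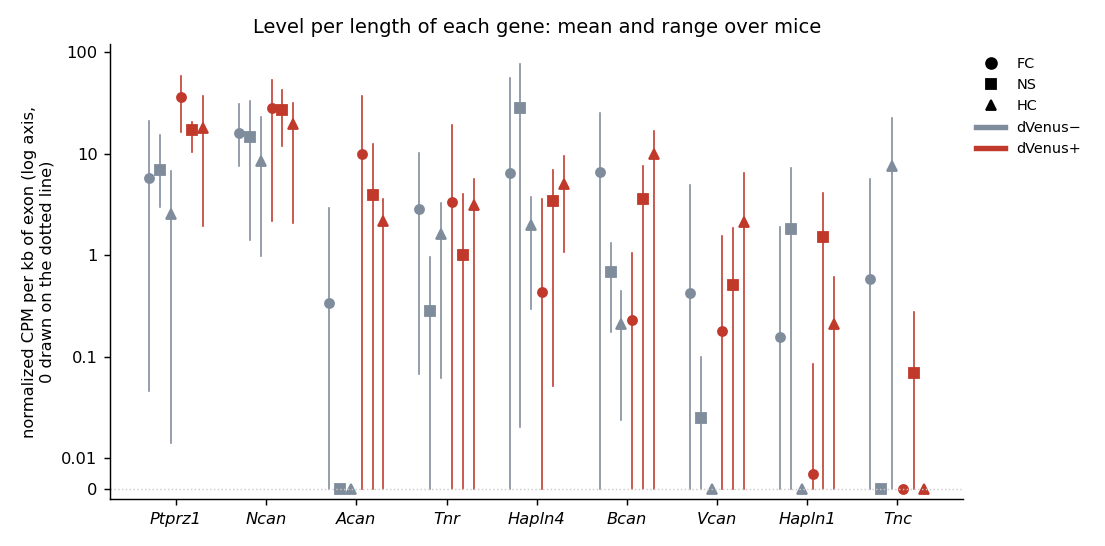
Level per length, in normalized CPM per kilobase of exon on a log axis with 0 drawn on the dotted line, for the 9 genes in FC (circles), NS (squares) and HC (triangles). Symbols are means over mice and lines run from the lowest to the highest library, in grey for dVenus- and red for dVenus+ cells. Acan in dVenus- cells is at 0.337 in FC and at 0 in NS and HC, against 9.85, 3.88 and 2.18 in dVenus+ cells.

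**Figure D5:**
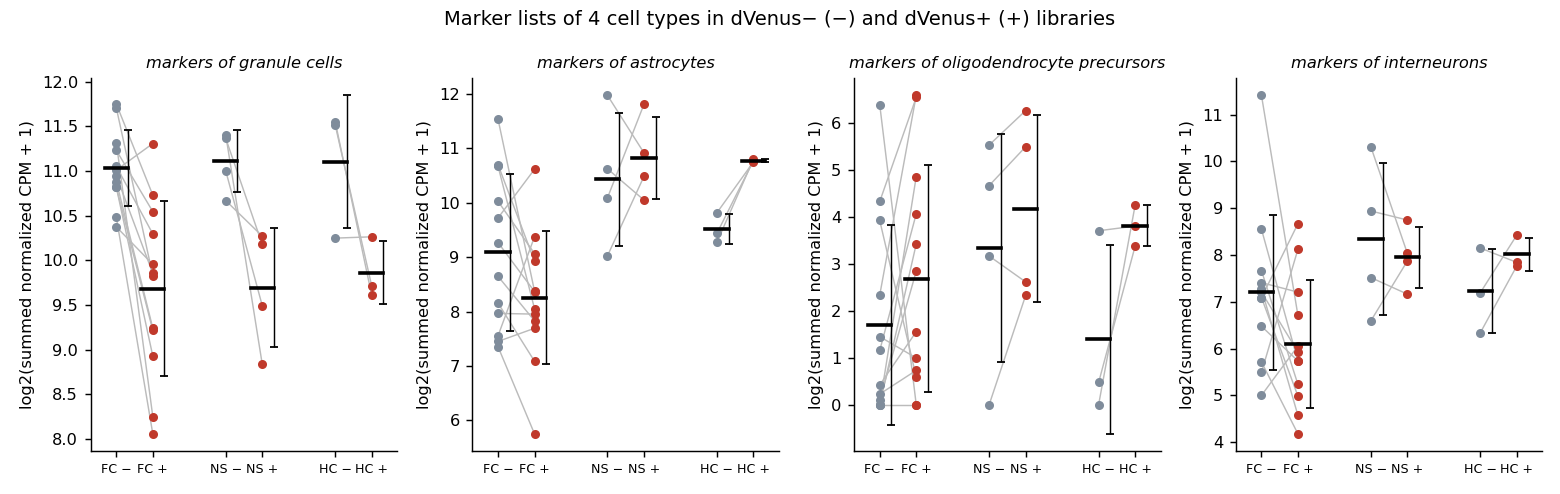
Summed level of the markers of granule cells, astrocytes, oligodendrocyte precursors and interneurons on the scale log2(summed normalized CPM + 1) in every library, grouped as FC, NS and HC and by cell type (- for dVenus-, + for dVenus+). Points are libraries, grey lines join those of 1 mouse, and black lines are means with the SD. Granule cell markers fall in dVenus+ cells in 11 of 12 FC, 4 of 4 NS and 2 of 3 HC mice. The highest point of the interneuron panel is the dVenus- library of FC mouse 10.

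Among other genes of the net, 5 lists were read, and 12.8% of all genes tested in FC had an unadjusted p under 0.05 in edgeR. Of 22 receptors, partners and ligands, 17 passed the filter of FC, 1 rose and 1 fell, where 0.577% of all genes were called as higher and 0.834% as lower, with a median log2 fold change of -0.52 against -0.21 over all genes tested. Nptx2, a neuronal pentraxin that gathers AMPA receptors and is secreted upon activity, rose by 7.62 (SE 1.61, edgeR adjusted p = 0.0209) and was higher in 11 of 12 mice, at 72.3 ± 63.5 against 6.04 ± 13.1 normalized CPM (SD, n = 12). Nptx1, its relative, fell by 1.87 (SE 0.36, edgeR adjusted p = 0.0119) and was lower in 11 of 12 mice, at 218 ± 121 against 741 ± 350. The third of the list by unadjusted p, Rtn4rl1, a Nogo receptor relative that binds chondroitin sulfate, had a log2 fold change of 1.24 that did not pass (edgeR adjusted p = 0.152).

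Of the 21 enzymes that build chondroitin sulfate chains, 12 were tested and none was called by edgeR, with a median of -0.30 and 1 gene at an unadjusted p under 0.05, against 12.8% of all genes. The smallest unadjusted p were those of Csgalnact1, which starts the chain (-3.99, SE 1.55, edgeR adjusted p = 0.244), and of the sulfotransferases Chst12 (-4.13) and Chst7 (-4.66), both under the filter. Of 28 proteases and inhibitors, 26 of them in the files, 12 were tested and none was called by edgeR, with a median of 0.26 and 4 genes at an unadjusted p under 0.05, against the 12.8% of all genes. Adamts1, a protease that cuts lecticans, was at -4.96 under the filter (adjusted p = 0.150), the metalloprotease inhibitor Timp2 at -3.16 (adjusted p = 0.146) and the hyaluronidase Tmem2 at 1.78 (adjusted p = 0.215), all by edgeR. Of 9 link protein and hyaluronan genes only 1 passed the filter, and none was called by edgeR, with or without it. Has1 and Has2, which make hyaluronan, had 84 and 16 counts over the 12 FC dVenus+ libraries and 27 and 0 over the dVenus- libraries. Hapln2 and Hapln3 had 0 counts in FC dVenus+ cells and 7 and 12 in dVenus- cells. Of 19 other matrix genes, 8 were tested and none was called, with a median of -1.03 and 1 gene at an unadjusted p under 0.05 in edgeR. In the fit without the filter Lum, the keratan sulfate proteoglycan lumican, fell by 8.24 (SE 1.79, edgeR adjusted p = 0.0334), with 1 count in FC dVenus+ and 1710 in dVenus- libraries, of which 7 had at least 10.

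The genes whose levels ran most like those of Acan over the 24 FC libraries were Tcta, Inhba, Scg2, Cct8 and Caml, with Spearman's rho of 0.87, 0.86, 0.83, 0.81 and 0.80, where 99% of tested genes lay under 0.62. Of these, Inhba and Scg2 were called as higher in dVenus+ cells of FC mice, as were Malat1 and Rnf4 among those named next. Those most like Ptprz1 were Epha10, Malat1 and Ssb, with rho of 0.87, 0.83 and 0.81. For Ncan they were Cyp51, Nmd3 and Rnf4 (0.82, 0.80 and 0.79) and for Tnr Top3b, Adar and Tpx2 (0.78, 0.74 and 0.74). Between members, rho over the 24 libraries was 0.65 for Ncan and Ptprz1 and 0.48 for Acan and Ptprz1. Within the 12 dVenus+ libraries it was 0.57 and -0.38, so that Acan and Ptprz1 shared the contrast between cell types and not an order of mice within dVenus+ cells. These are descriptions over libraries that come in pairs from a mouse.

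Acan, on chromosome 7 (chr7:79053226-79115099 of GRCm38), lies 1.9 kb from Hapln3, Ncan 2.2 kb from Hapln4, Bcan 18.4 kb from Hapln2 and Vcan 43.5 kb from Hapln1, with 0 genes wholly between each pair. Next to Acan, Hapln3 had no count in FC dVenus+ cells. RefSeq promoters of GRCm38.p6 were matched for 8 of the 9 genes, all but Hapln4. The 250 bases before a RefSeq start of the 2 called genes, and of Bcan, whose fold change ran the other way, are shown because they were read for sites of activity-dependent factors, on the strand of the gene and 5′ to 3′. The window of Acan ends where the annotated gene begins, while those of Ptprz1 and Bcan lie before a start inside the annotated gene. Capitals mark the GC box GGGCGG on either strand.

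Acan promoter, chr7:79052976-79053225, plus strand: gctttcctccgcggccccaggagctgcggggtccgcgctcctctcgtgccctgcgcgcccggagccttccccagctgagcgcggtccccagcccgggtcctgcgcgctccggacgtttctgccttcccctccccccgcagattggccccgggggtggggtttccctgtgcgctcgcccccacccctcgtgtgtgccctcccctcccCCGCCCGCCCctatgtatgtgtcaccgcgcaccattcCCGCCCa
Ptprz1 promoter, chr6:22875252-22875501, plus strand: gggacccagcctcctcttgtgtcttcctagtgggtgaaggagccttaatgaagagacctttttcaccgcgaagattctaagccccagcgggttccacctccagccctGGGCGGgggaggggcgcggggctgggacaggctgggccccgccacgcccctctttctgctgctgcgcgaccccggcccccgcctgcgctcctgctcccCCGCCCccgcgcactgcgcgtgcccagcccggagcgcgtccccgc
Bcan promoter, chr3:88000357-88000606, minus strand: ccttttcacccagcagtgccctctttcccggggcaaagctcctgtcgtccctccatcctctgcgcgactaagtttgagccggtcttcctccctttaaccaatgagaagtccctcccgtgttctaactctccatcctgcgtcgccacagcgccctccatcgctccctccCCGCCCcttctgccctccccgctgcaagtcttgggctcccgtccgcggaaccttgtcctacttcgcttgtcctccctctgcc

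The windows of Acan, Ptprz1 and Bcan hold 3, 2 and 1 GC boxes, 2 of those of Acan overlapping, and 32.7% of 32851 promoter windows of this length hold at least 1. Their G and C content is 74.4%, 71.6% and 62.0%, against a median of 52.4% and an upper quartile of 61.2% over all windows. The cAMP response element TGACGTCA, its core TGACG and the AP-1 site TGANTCA, each searched on both strands, were not found in these windows or those of the other matched members, and are held by 1.55%, 17.8% and 6.75% of all windows. The core lies within the full element, so that each window with the element is counted for both. The E-box CANNTG was found at 1 place in the window of Acan and is held by 66.2% of all windows.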

How the data were processed

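RNA of 38 pools of 10 dentate gyrus cells was sequenced after Smart-seq2 amplification and Nextera XT tagmentation, without molecular identifiers or strand information. The floor of detection covers counting error only, whereas the SD and SE given include the spread between mice. The deposited values are read counts per gene, made by the authors by alignment and counting, and the submitters' processing notes name TopHat2 2.0.13, HTSeq 0.6.0 and the mm10 build. The strand setting of the counting is not given in the sources used here. In each library 5 entries that name no gene were left out, and reads on no feature made up 16.4% to 59.7% of uniquely aligned reads. The single-library counts equal those of the deposited series table in 38 of 38 libraries for the genes listed there.

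Counts were fitted with edgeR 4.0.16 in R 4.3.3 by the quasi-likelihood test in its default, older method, with TMM scaling and the mouse as block, separately in FC, NS, HC, and NS with HC. Genes with at least 10 counts in as many libraries as there were mice were tested, and members under this filter were taken from the same fit without it. A gene was called at a Benjamini-Hochberg adjusted p under 0.05 and an absolute log2 fold change over 1. The SE is the absolute log2 fold change divided by the root of the F statistic. Differences between trainings were fitted over 38 libraries with 14075 genes. Both libraries of a number come from the same animal, by the mouse number in their titles. The description labels of some NS and HC libraries name another library than their titles. Groups and pairs were taken from the titles, so the NS and HC values depend on that choice. The correlation of their deviations had a median of 0.041 over FC pairs, and 2 of 12 exceeded 0.1. Nothing states how the pools of a mouse vary technically, so p-values measure the spread between mice as sampled. The script was tested on simulated data.

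Sign-flip tests exchanged the cell types within mice over all sign patterns, two-sided. DESeq2 1.42.0, other scalings, other filters, single submissions and leaving out each mouse were alternatives, and means and fold bounds without each mouse were added after seeing the data. Genes named are the 9 members, Arc, the called genes and 3 smallest unadjusted p of each other list, and the genes most alike by Spearman's rho over 24 FC libraries. Further genes (marker genes, and Hapln2, Hapln3, Has1 and Has2) were named after their values were seen. The members and lists were chosen with earlier results of these data known.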

Additional observations from a re-analysis of the deposited data

Results flagged for a closer look

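Some members had 1 NS library far from the other 3 of its cell type by Dixon's criterion, in 7 of 16 groups tested. Chance meets it in about 1 of 20 groups of continuous values, but that rate does not hold for sparse counts: where 3 of 4 libraries are at 0 any other value meets it, as for Tnc in mouse 18 and Vcan in mouse 19, so the number is not read against it. Among NS dVenus+ libraries, Vcan in mouse 21 stood at 27.1 normalized CPM (116 counts) with the next at 2.38, Tnr in mouse 18 at 51.2 with the next at 0.298, and Tnc in mouse 18 at 2.16 with the others at 0. Among NS dVenus- libraries, Vcan in mouse 19 stood at 1.44 normalized CPM with the others at 0, and Hapln1 in mouse 20 at 42.7 (539 counts) with the next at 0.400. Tnr in mouse 18 stood at 12.5 with the next at 1.74, and Ptprz1 in mouse 20 at 219 with the next at 72.8. Mouse 18 was thus high in Tnr in both cell types.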

How the results depend on the processing

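Acan and Ptprz1 stayed higher in FC dVenus+ cells under all alternatives run. The number of genes called in FC, 137, 56 of them higher, became 80 with library totals alone (20 higher), 126 without the block (66 higher), 1635 with the Wald test of DESeq2, 422 with the newer quasi-likelihood method of edgeR (chosen after seeing the data), 46 without mice 03 and 05, 312 in the sign-flip test (by adjusted p alone, with no fold threshold), 16, 3 and 0 within submissions, and 61 to 114 when each mouse was left out. In NS, 0 calls became 1 with DESeq2 size factors, 666 with DESeq2, 4 with the newer method, 13 without a filter, 5 with 10 counts in 3 libraries, and 0 to 11 without a mouse. In HC, 2 calls became 0 with DESeq2 size factors, library totals, no block or the newer method, 625 with DESeq2 and 5 without a filter. In NS with HC, 2 became 1 with library totals, 1065 with DESeq2, 57 with the newer method, 10 without a filter, 0 in the sign-flip test, and 0 to 5 without a mouse. With DESeq2 the differences between trainings gave 1192 calls (FC minus NS), 1583 (FC minus HC), 1339 (NS minus HC) and 1613 (FC minus the mean), and NS minus HC gave 0 without the block or with the newer method. The causes were not tested. Library totals moved the median log2 fold change of all genes from -0.21 to -0.53 in FC, from 0.20 to -0.31 in NS and from 0.11 to -0.67 in HC, and against that shift Ptprz1 in FC was at 2.97.

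Directions turned for sparse members. Without the replicate block, log2 fold changes were 0.27 for Tnr in FC, 1.74 for Tnr and -0.47 for Hapln1 in NS, and -0.36 for Hapln1 and -2.10 for Hapln4 in NS with HC. In FC, Tnr was 0.43 in submission 2, Hapln1 2.76 in submission 1, and Vcan 1.93 in submission 3, 0.70 without mice 03 and 05, 0.32 with the newer method and 0.0021 in the sign-flip test. Library totals gave -0.18 for Tnr in HC, and -0.21 for Tnr and -0.19 for Hapln4 in NS with HC. The newer method gave 0.90 for Tnr in NS, -0.41 for Hapln4 in NS with HC and 0.014 for Arc in FC minus the mean. The sign-flip test gave -0.021 for Hapln4 in NS with HC, and DESeq2 size factors 0.38 for Tnc in FC minus the mean. Leaving out each mouse gave -1.47 to 0.65 for Vcan and -1.33 to 0.69 for Hapln1 in FC. In NS it gave -2.01 to 1.16 for Tnr, -4.31 to 6.97 for Hapln1 and -2.14 to 0.99 for Hapln4, where mouse 18 (0.99) or 19 (0.91) turned the sign. It gave -4.10 to 3.59 for Tnr in HC, and -0.91 to 1.08 for Tnr, -0.54 to 1.36 for Hapln4 and -2.61 to 1.72 for Tnc in NS with HC. DESeq2 on unfiltered genes was not run, and fits that left a gene with no count gave no value.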
